A study of Mus musculus with 6 samples.

Results

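Potassium channel genes were examined in RNA of primary cells of the retinal pigment epithelium (RPE) of mice, the pigmented layer beside the photoreceptors. They were taken as every gene whose symbol is Kcn, then letters, then a number, and 80 of the 28043 listed genes met that rule. Polyadenylated RNA had been sequenced from 3 libraries of RPE cells of mice with proliferative vitreoretinopathy (PVR) and 3 of RPE cells of normal mice (Normal). PVR is a scarring disorder of the injured eye, here named as traumatic. The sources used here do not give strain, age or sex of the mice, nor how the disorder was brought about. The labels do not say whether replicates were separate animals, so p-values reflect only how these libraries spread, and that spread may be technical. Between 15269983 and 19173187 reads per library were recovered from the deposited values. A value below is a normalised count, that is, the reads of a gene divided by the authors' size factor of that library.

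Potassium channels let potassium leave or enter a cell along its electrochemical gradient and set its resting potential. Inward rectifiers (Kir, genes Kcnj) pass potassium near rest, voltage-gated channels open on depolarisation, two-pore channels (Kcnk) carry leak currents, and calcium- or sodium-activated channels open with those ions. In the RPE the sodium pump and potassium channels share the apical membrane, where potassium taken up by the pump is recycled toward the photoreceptors. Kir7.1, the product of Kcnj13, is the main apical inward rectifier of the RPE, and mutations in the human gene cause retinal dystrophy. By class the 80 genes comprised 14 Kir, 34 voltage-gated, 10 two-pore, 8 calcium- or sodium-activated and 14 auxiliary subunit genes.

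Promoter sequence is shown for 2 Kir genes, Kcnj13 because it had the highest level of the family and Kcnj15 because it had the largest rise of the Kir class in PVR. Each window runs from 250 bases before to 50 bases after the gene start (RefSeq, GRCm38.p6) and is written 5′ to 3′ on the strand of the gene. Capitals mark matches, on either strand, to the E-boxes CACGTG and CATGTG, the OTX2 core TAATCC, the AP-1 site TGANTCA, the ETS core GGAAGT or the TATA box TATAAA.
Kcnj13, chr1:87394680-87394979, minus strand: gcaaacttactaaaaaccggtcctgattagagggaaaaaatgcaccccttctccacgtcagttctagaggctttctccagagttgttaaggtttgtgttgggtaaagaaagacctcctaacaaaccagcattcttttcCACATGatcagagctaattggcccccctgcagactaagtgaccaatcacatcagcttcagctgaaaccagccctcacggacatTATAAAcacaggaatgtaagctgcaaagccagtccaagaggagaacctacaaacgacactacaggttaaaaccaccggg
Kcnj15, chr16:95257308-95257607, plus strand: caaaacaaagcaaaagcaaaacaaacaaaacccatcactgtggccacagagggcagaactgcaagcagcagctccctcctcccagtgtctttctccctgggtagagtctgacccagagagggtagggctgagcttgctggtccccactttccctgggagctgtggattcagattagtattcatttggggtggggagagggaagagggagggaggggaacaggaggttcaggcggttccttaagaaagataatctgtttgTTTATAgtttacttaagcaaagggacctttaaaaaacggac
The Kcnj13 window held CATGTG on the opposite strand, its first base 112 before the gene start, and TATAAA on the strand of the gene, 29 bases before the start. The Kcnj15 window held only TATAAA, on the opposite strand and 10 bases past the start. Among 32851 promoter windows of the same length, 14.2% held CATGTG and 13.6% held TATAAA on either strand. CACGTG was found in 7.15% of them, TAATCC in 7.06%, TGANTCA in 7.81% and GGAAGT in 23.8%. A match describes letters and is not evidence that a factor binds there. Of the 20 potassium channel genes that passed the test below, 16 had a window in that table. Kcnq3 was not among them.

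Kcnj13 had the highest level of the family in both groups. Levels between genes are compared as normalised counts per kb of exon (GENCODE M21, GRCm38). On that scale Kcnj13 averaged 2259 ± 480 in PVR and 3449 ± 553 in Normal (SD, n = 3 each). Kcna2, a delayed rectifier of the Kv1 family, had 119 ± 27.4 per kb in PVR and 216 ± 15.2 in Normal. Kcnh2, the human homologue of which carries the rapid delayed rectifier current of the heart, had rank 3 in PVR (170.3 ± 21.9 per kb) and rank 6 in Normal (91.0 ± 8.20). Kcnj8 had 60.4 ± 29.6 per kb in PVR and 97.8 ± 5.61 in Normal. In Normal the levels of Kcnj8 and Kcnh2 lay within their SDs of each other, below that of Kcna2. Kcnj13 made up 49.4%, 62.3% and 54.4% of the summed level per kb of all 80 genes in PVR replicates 1 to 3, against 61.3%, 56.3% and 63.1% in Normal replicates 1 to 3, so that the groups overlapped. The annotated exons of Kcnj13 total only 1270 bases, so its level per kb would be lower under a longer gene model. By class, Kir genes held 58.0% of the summed level per kb in PVR and 62.3% in Normal, voltage-gated genes 33.4% in PVR and 32.1% in Normal, and auxiliary subunits 4.39% in PVR and 2.20% in Normal.

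**Figure D1:**
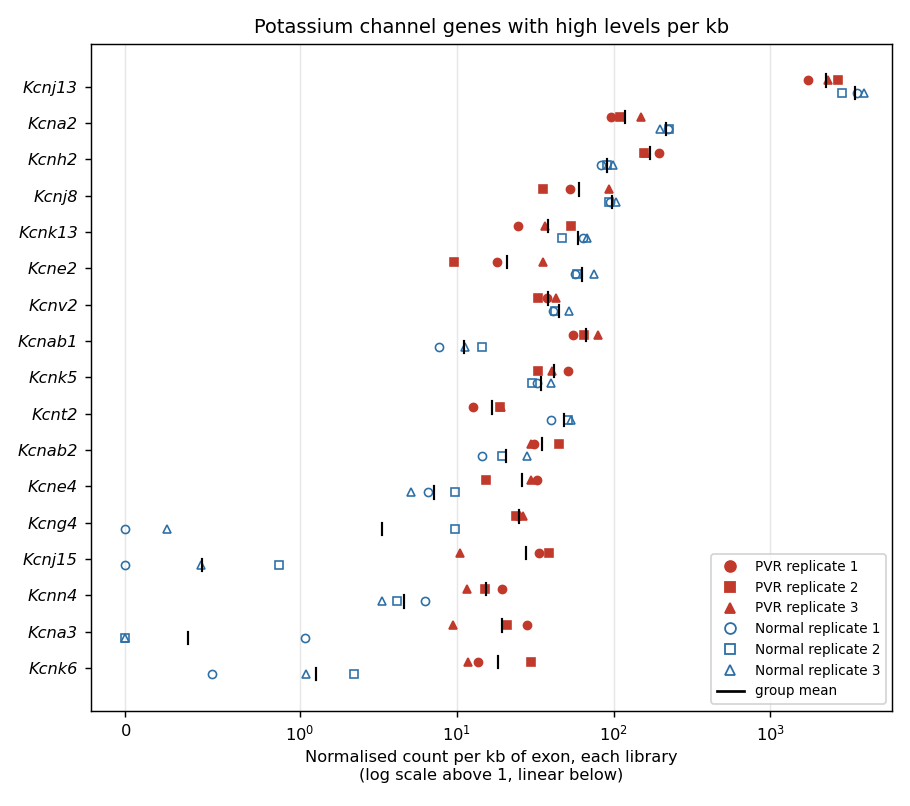
Level of 17 potassium channel genes from the 20 with the highest mean over all libraries, in normalised counts per kb of exon, 1 point per library and a bar for each group mean (axis logarithmic above 1, linear below); PVR is drawn above Normal for each gene. Kcnj13 lies far to the right of the other genes drawn in both groups, and Kcnj15 and Kcna3 are near or at 0 in Normal libraries.

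As a share of all normalised counts the 80 genes held 0.0621%, 0.0695% and 0.0780% in PVR replicates 1 to 3 and 0.0980%, 0.0944% and 0.0946% in Normal replicates 1 to 3. The groups did not overlap. This share is weighted toward the genes with most counts, such as Kcnj13 and Kcna2, and does not describe the family gene by gene. All 80 genes had at least 1 read in some library. A filter on low counts (at least about 10 reads in 3 libraries) left 37 for testing, and the other 43 are described by their reads. The 37 were tested with limma on log2(normalised count + 1), within a fit to 15766 genes and with Benjamini-Hochberg adjustment over all of them. Changes are given as log2 of PVR minus log2 of Normal after adding 1, so those of weakly expressed genes come out too small.

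Of the 37 genes tested, 12 rose in PVR and 8 fell (limma, adjusted p under 0.05). Over all 15766 genes tested, 17.9% rose and 12.9% fell, that is, 30.8% passed the test in either direction. PVR values lay wholly above Normal values for 13 of the 37 genes and wholly below for 10, beside 24.7% and 23.3% of all genes tested (48.0% without overlap in either direction). Of the 12 that rose, 6 (Kcnj15, Kcnj2, Kcna3, Kcnq3, Kcnip3 and Kcnk6) reached 10 reads in at most 1 Normal library and so passed the filter only through PVR, as did Kcng4. For that reason these counts describe the family and are not support for a family-wide shift. The median log2 change was -0.12 over the 37 and -0.02 over all genes tested. The number that fell was 5 without Normal replicate 1, 4 without Normal replicate 3 and 5 without PVR replicate 1. Over all genes PVR replicate 3 lay nearer to the Normal libraries (r = 0.929 to 0.935) than PVR replicates 1 and 2 did (0.880 to 0.893), and Normal replicate 2 stood out in several genes below. Leaving out both gave 12 higher and 8 lower.

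**Figure D2:**
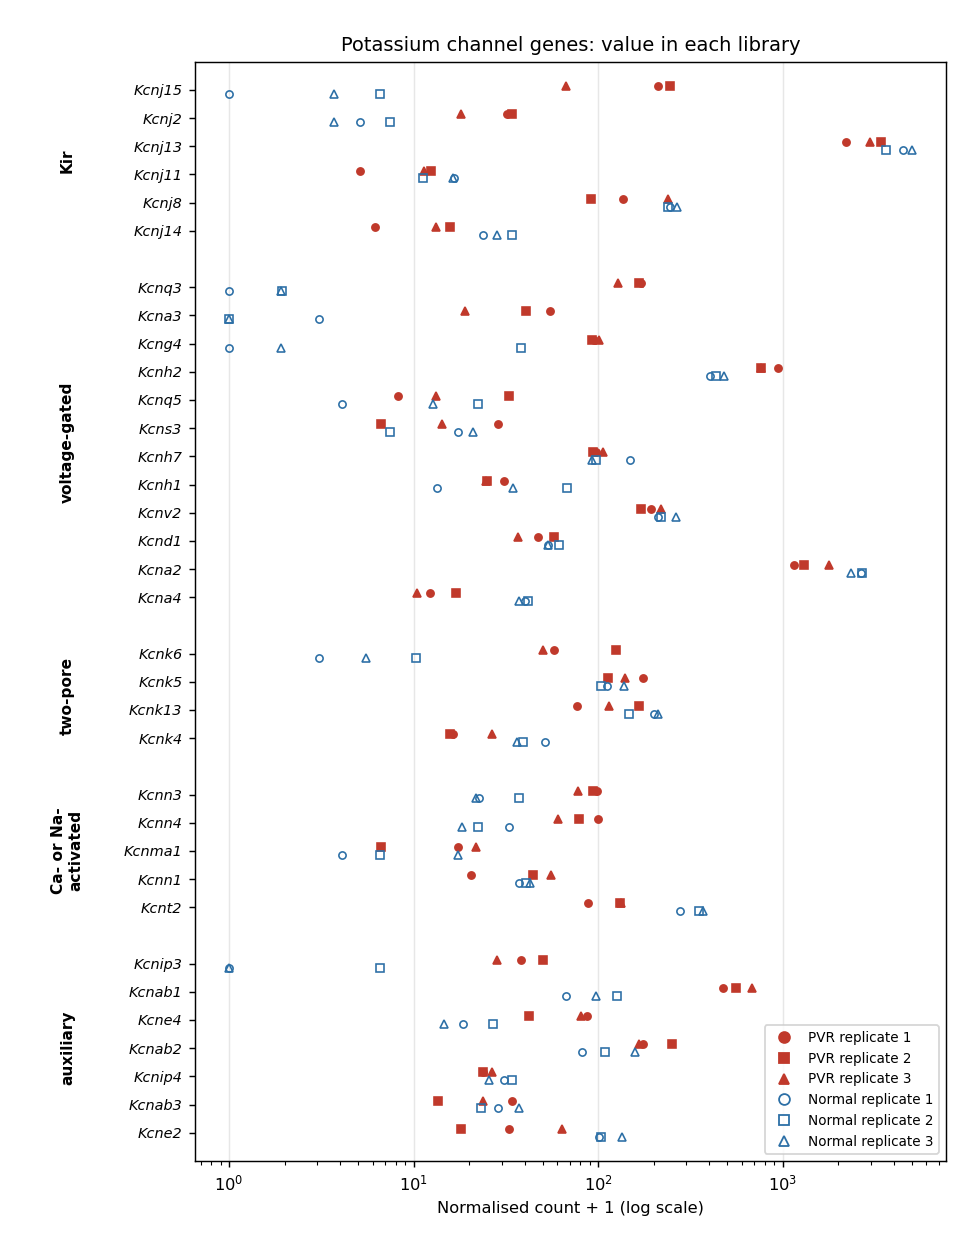
Normalised count + 1 (log axis) of 34 of the 37 tested potassium channel genes in each library, by class, with PVR (filled) above Normal (open); symbols give the replicate number. Kcnq3, Kcnj15, Kcna3, Kcnk6, Kcnip3 and Kcnab1 show wide gaps between the groups, whereas the points of Kcnv2 and Kcnk5 intermingle.

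Markers of cell types moved with the groups and are given first. Of 14 RPE markers 8 fell and 6 did not pass the test, with a median log2 change of -0.60. Their summed level ranged from 668512 to 735669 in PVR and from 944440 to 1010820 in Normal. Best1 was low, at an average of 15.6 in PVR and 11.98 in Normal (limma adjusted p = 0.743), while Rpe65 averaged 31775 in PVR and 86793 in Normal. Of 15 macrophage and microglia markers 14 rose, with a median log2 change of 4.64, and Csf1r fell. Their summed level ranged from 19045 to 36318 in PVR and from 10314 to 11890 in Normal, with PVR replicate 3 the lowest of the PVR libraries. Csf1r held most of the Normal sum (10038 ± 998, against 7392 ± 947 in PVR). Apart from Csf1r, the Normal averages ran from 3.87 ± 2.58 for Itgam (248 ± 98.3 in PVR) to 234 ± 112 for Cd68 (2365 ± 960 in PVR). None of the 15 was at 0 in a group. Of 6 fibroblast markers 5 rose, and their sum ranged from 9082 to 13001 in PVR and from 1980.3 to 3709 in Normal. Among those tested, 2 of 7 Müller glia and astrocyte markers, 3 of 7 pericyte and smooth muscle markers and the 1 lymphocyte marker rose, and 1 of 13 photoreceptor markers fell. Of 5 retinal neuron markers tested 3 rose and 1 fell. Of 5 Schwann cell and melanocyte markers tested 3 rose and 1 fell, and the sum of that list ranged from 31488 to 39720.4 in PVR and from 19209.5 to 25252 in Normal. Of 10 endothelial markers 0 passed with limma, edgeR or DESeq2, and 1 had an unadjusted p under 0.05 with each tool. In bulk RNA, fewer cells of a type and less RNA per cell cannot be told apart. The part of other cell types in the changes below was not tested, and marker values given there are descriptions.

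Among the Kir genes, 6 of 14 were tested, of which Kcnj15 and Kcnj2 rose and Kcnj13 and Kcnj14 fell. Kcnj13 had 2215, 3420.3 and 2971 normalised counts in PVR replicates 1 to 3, against 4519, 3619 and 5004 in Normal replicates 1 to 3. All PVR libraries were below all Normal libraries, although PVR replicate 2 and Normal replicate 2 lay close together. The means were 2869 ± 609 in PVR and 4381 ± 703 in Normal (SD, n = 3 each), so that PVR held 65.5% of the Normal level. The log2 change was -0.62 (SE 0.18, 95% interval -1.03 to -0.22, limma adjusted p = 0.0285). The gene no longer passed when Normal replicate 1 (limma adjusted p = 0.0946), Normal replicate 3 (0.0956), PVR replicate 1 (0.0686) or PVR replicate 3 (0.0585) was left out, nor with replicates 1 and 2 alone (0.151).

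The summed level of the RPE markers in PVR was 71.2% of that in Normal, beside the 65.5% of Kcnj13. Ttr and Rgr held most of that sum. Ttr did not fall (302541 in PVR, 262990 in Normal, limma adjusted p = 0.215), whereas Rgr did (157350 in PVR, 298663 in Normal). Levels relative to this sum, here and below, therefore depend strongly on Ttr and Rgr. The 8 RPE markers that fell had log2 changes from -1.46 (Rpe65) to -0.51 (Slc16a8), and 6 did not pass the test. Per 1000 normalised counts of the 14 RPE markers, Kcnj13 had 3.27, 5.12 and 4.04 in PVR replicates 1 to 3 and 4.67, 3.83 and 4.95 in Normal replicates 1 to 3. On this scale the groups overlapped. Kcnj13 (chromosome 1, 87386363 to 87394729, minus strand) lies inside Gigyf2, and 623 of its 1270 exon bases overlap exons of Gigyf2 on the opposite strand. The sources used here do not say whether reads were counted by strand. Gigyf2 itself had 1310 ± 56.2 in PVR and 1480.3 ± 47.3 in Normal and did not pass the test (log2 change -0.18, limma adjusted p = 0.183).

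The largest Kir change was that of Kcnj15, which encodes Kir4.2. Its values were 211, 245 and 66.1 in PVR replicates 1 to 3, against 0, 5.56 and 2.72 in Normal replicates 1 to 3. Every PVR library exceeded every Normal library, with PVR replicate 3 well below the other PVR libraries. The log2 change was 5.71 (SE 0.77, limma adjusted p = 0.00102). Its exons share 333 bases with Gm49643 on the opposite strand, which had at most 4.12 counts in a library. Kcnj2, the strong inward rectifier Kir2.1 of muscle, neurons and leukocytes, had 30.9, 33.0 and 17 in PVR and 4.12, 6.48 and 2.72 in Normal (log2 change 2.37, SE 0.49, limma adjusted p = 0.0057). Here too PVR replicate 3 was the lowest PVR library, and the groups did not overlap.

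Kcnj14, which encodes Kir2.4, fell to 5.15, 14.8 and 12.3 in PVR, against 22.7, 33.3 and 27.2 in Normal (log2 change -1.38, limma adjusted p = 0.0459). Leaving out a library other than PVR replicate 2 ended its call (adjusted p 0.0572 to 0.128), and so did DESeq2 (0.0706). Kcnj8 encodes the pore of the ATP-sensitive channel of pericytes and smooth muscle. It had 135, 89.98 and 237 in PVR and 243, 239 and 266 in Normal. PVR replicate 3 came close to the Normal libraries while the other PVR libraries lay well below. Kcnj8 did not pass the test (log2 change -0.80, 95% interval -1.52 to -0.09, limma adjusted p = 0.0865). With the replicate number as a block its adjusted p was 0.0288, without PVR replicate 3 it was 0.00341, and with edgeR it was 0.137. Kcnj11, the pore of the ATP-sensitive channel of beta cells, did not pass the test either, and its groups overlapped (log2 change -0.69, limma adjusted p = 0.34). Kcnj10, the Kir4.1 channel of Müller glia, was near the floor with 6, 21 and 18 reads in PVR and 9, 6 and 8 reads in Normal, and did not pass the filter.

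**Figure D3:**
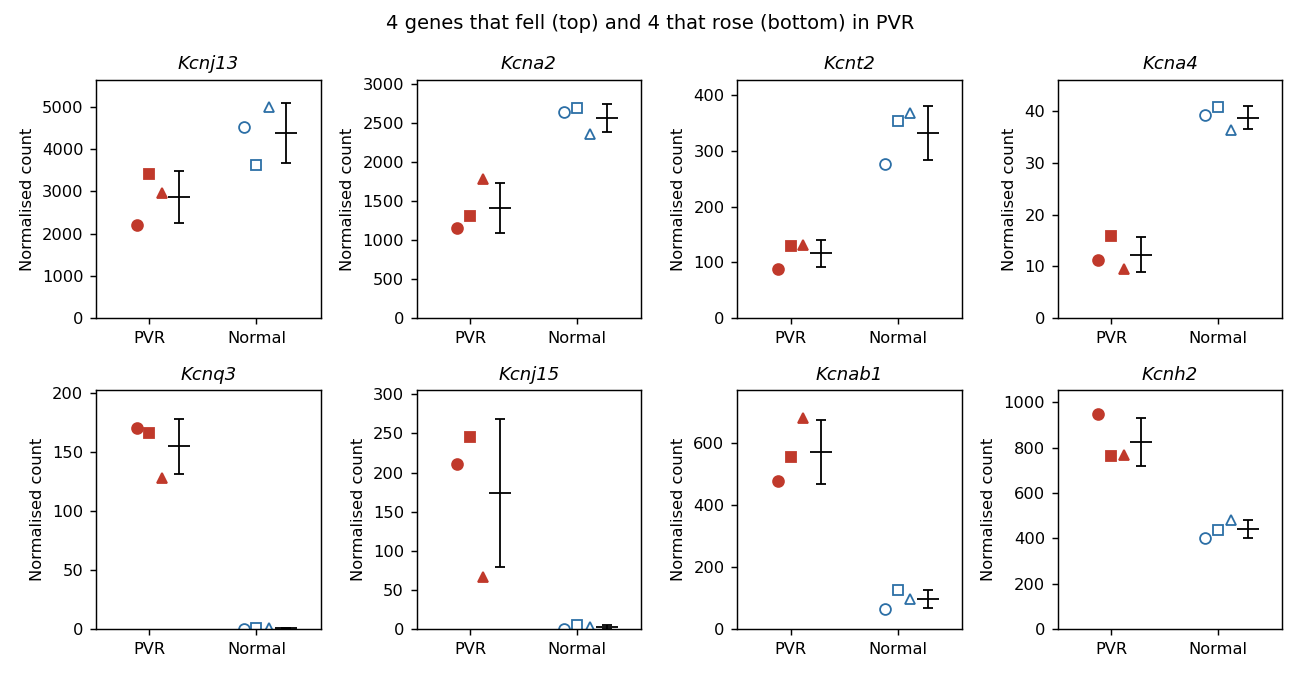
Normalised counts of 4 genes that fell (Kcnj13, Kcna2, Kcnt2, Kcna4; top row) and 4 that rose (Kcnq3, Kcnj15, Kcnab1, Kcnh2; bottom row), with PVR left of Normal; points are libraries and the black mark with its bar is mean ± SD (n = 3 each). In each panel no PVR point lies among the Normal points, and the Kcnj13 panel shows the closest approach.

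Voltage-gated genes formed the largest class, with 15 of 34 tested, 3 higher and 3 lower. Kcna2 had 1154, 1309 and 1780.3 in PVR and 2645, 2699.6 and 2362 in Normal (log2 change -0.88, SE 0.15, limma adjusted p = 0.00237). PVR replicate 3 was the highest of its group and stayed below each Normal library. Relative to RPE markers the groups overlapped (1.70, 1.96 and 2.42 per 1000 in PVR, 2.73, 2.86 and 2.34 in Normal). Kcna4, an A-type channel of the same family, fell to 11.3, 15.9 and 9.44 in PVR, against 39.2, 40.7 and 36.3 in Normal (log2 change -1.61, SE 0.35, limma adjusted p = 0.00728). Without Normal replicate 2 and PVR replicate 3 its adjusted p was 0.0515.

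The same family held a gene that went the other way. Kcna3 encodes Kv1.3, known as the delayed rectifier of T lymphocytes and activated microglia. It was read 52, 35 and 19 times in PVR, against 2, 0 and 0 times in Normal, and its normalised counts in PVR were 53.5, 39.9 and 17.9. From the pooled reads PVR was 57.5 times Normal, with a 95% counting interval of 15.5 to 481, and the log2 change was 4.58 (SE 0.68, limma adjusted p = 0.00094). Kcna3 and Kcna2 are neighbours, 63.1 kb apart on chromosome 3 (107036169 to 107038070 and 107101146 to 107115005, GRCm38).

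Kcnq3 was the gene with the largest change of the family. It is a subunit of neuronal M-type channels. It was read 165, 146 and 135 times in PVR and 0, 1 and 1 times in Normal. In normalised counts PVR replicates 1 to 3 held 169.9, 166 and 128, and no Normal library exceeded 0.926. From pooled reads the ratio was 242 (95% counting interval 66.6 to 2003), and the log2 change was 6.64 (SE 0.44, limma adjusted p = 2.35e-05). The PVR values were close to each other, unlike those of Kcnj15. Among neuron markers Stmn2 also rose, to 42.2, 99.1 and 46.3 in PVR, against 4.12, 4.63 and 2.72 in Normal, while Syt1 fell (356 ± 112 in PVR, 1160.0 ± 85.5 in Normal). Tubb3 (20.5 ± 8.92 in PVR, 2.25 ± 0.727 in Normal) and Rbpms (221 ± 29.3 in PVR, 100.3 ± 15.2 in Normal) rose as well, and Prkca did not pass the test. The summed neuron list ranged from 1331 to 1431 in PVR and from 1818 to 1998 in Normal. Syt1 held most of the Normal sum, so the lower sum in PVR reflects Syt1 and not the list as a whole. Slc17a6 was at 1.10 in PVR and at 0 in Normal. The part of neurons in the Kcnq3 change was not tested.

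Kcnh2 rose to 947, 762 and 766 in PVR, against 403, 437 and 482 in Normal (log2 change 0.90, SE 0.13, limma adjusted p = 0.000777). The lowest PVR library was well above the highest Normal library.

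Kcng4, a silent subunit that modifies other voltage-gated subunits, had 93.7, 91.1 and 100.1 in PVR and 0, 37.0 and 0.906 in Normal. It was examined after its values were seen. The groups did not overlap, and Normal replicate 2 stood far above the other Normal libraries (log2 change 4.52, SE 1.37, limma adjusted p = 0.0547). The adjusted p was 3.05e-05 without Normal replicate 2 and 0.0438 with the replicate number as a block, but 0.134 with edgeR (log2 change 2.88), 0.22 with DESeq2 (log2 change 2.91) and 0.155 with no filter. Kcnk1 and Kcnj3 were also highest in that library. Kcnk1 had 89 reads there and 2 and 11 in Normal replicates 1 and 3, and Kcnj3 had 30, against 0 and 2. The astrocyte and Müller glia marker Aqp4 stood at 95.4 in Normal replicate 2, and at no more than 2.72 in the other Normal libraries. The part of such cells in these values was not tested.

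Kcnv2 is a silent subunit known from photoreceptor inner segments. Kcnv2 averaged 194 ± 24.7 in PVR and 230.5 ± 29.9 in Normal and did not pass the test (log2 change -0.25, 95% interval -0.62 to 0.13, limma adjusted p = 0.294). Kcnq5, an M-type subunit known in RPE, was low (17.1 ± 13.0 in PVR, 12.1 ± 9.11 in Normal) and did not pass the test (log2 change 0.54, 95% interval -1.10 to 2.18). Kcnq1 had 2, 2 and 7 reads in PVR and 3, 10 and 0 in Normal and was not tested. Kcnd1, Kcnh1, Kcnh7 and Kcns3 did not pass the test and their groups overlapped.

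Of the two-pore genes 4 of 10 were tested. Kcnk6, which encodes the TWIK2 channel known for potassium efflux from macrophages, rose to 56.6, 124 and 49.1 in PVR, against 2.06, 9.26 and 4.53 in Normal (log2 change 3.67, SE 0.54, limma adjusted p = 0.00092). Its lowest PVR value was over any Normal value. Kcnk4, the mechanosensitive channel TRAAK, fell to 15.4, 14.8 and 25.5 in PVR, against 50.5, 38.0 and 35.3 in Normal (log2 change -1.13, limma adjusted p = 0.0355), but did not pass when a library other than PVR replicate 3 was left out (adjusted p 0.0614 to 0.131), nor with DESeq2 (0.0537). Its exons share 587 bases with Catsperz on the same strand, a gene with at most 13.7 counts in a library.

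Kcnk13 encodes THIK-1, known as the resting potassium conductance of microglia. It did not rise with the macrophage markers, at 76.2, 166 and 114 in PVR and 199.9, 145 and 211 in Normal. The groups overlapped and the gene did not pass the test (log2 change -0.69, 95% interval -1.33 to -0.05, limma adjusted p = 0.0971; 0.0282 without PVR replicate 2). Kcnk5, the acid-sensitive TASK-2 channel, had 174, 113 and 139 in PVR and 111, 103 and 137 in Normal and did not pass the test either (log2 change 0.26, 95% interval -0.22 to 0.75). Kcnk2, which encodes the mechanosensitive TREK-1, did not pass the filter but had 10, 8 and 23 reads in PVR and 2, 2 and 4 in Normal (limma adjusted p = 0.0229 in the fit with no filter).

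Among calcium- and sodium-activated channels 5 of 8 were tested. Kcnt2, the sodium-activated channel Slick, fell to 87.5, 129.8 and 131 in PVR, against 277, 353 and 368 in Normal. The highest PVR value lay under the lowest Normal value by a wide margin (log2 change -1.52, SE 0.20, limma adjusted p = 0.000598). Relative to 1000 counts of RPE markers it averaged 0.167 ± 0.0339 in PVR and 0.341 ± 0.0479 in Normal, and the groups again did not overlap.

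Kcnn3 and Kcnn4 rose, both small- or intermediate-conductance channels opened by calcium through calmodulin. Kcnn3 had 97.8, 92.3 and 76.5 in PVR and 21.6, 36.1 and 20.8 in Normal (log2 change 1.76, SE 0.30, limma adjusted p = 0.00207). Kcnn4, known from leukocytes and proliferating fibroblasts, had 98.9, 77.4 and 59.5 in PVR and 32.0, 21.3 and 17.2 in Normal (log2 change 1.72, SE 0.33, limma adjusted p = 0.00397). In both genes PVR replicate 3 was the lowest of the PVR libraries. Kcnn1 had 19.6, 43.3 and 54.8 in PVR and 36.1, 39.8 and 41.7 in Normal, and its log2 change of -0.12 (95% interval -0.99 to 0.76) did not pass the test. Its sign turned without PVR replicate 1. Kcnma1, the pore of the large-conductance channel, was low in all libraries (14.3 ± 7.77 in PVR, 8.32 ± 7.03 in Normal; log2 change 0.82, 95% interval -0.70 to 2.34, limma adjusted p = 0.396).

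Of the 14 auxiliary subunit genes 7 were tested, of which 4 rose and 1 fell. Kcnab1, a cytoplasmic beta subunit that speeds inactivation of Kv1 channels, had 477, 555 and 683 in PVR and 66.0, 125 and 96.98 in Normal. The groups were far apart, with PVR at 5.95 times the Normal mean (log2 change 2.59, SE 0.24, limma adjusted p = 0.00012). In PVR replicate 3, where the sum of macrophage markers was lowest, Kcnab1 was highest of the PVR libraries. The part of macrophages in the Kcnab1 change was not tested. Its exons share 201 bases with A330015K06Rik on the opposite strand, which had at most 5.69 counts in a library.

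Kcnab2, the beta subunit of the same family, had 174, 249 and 166 in PVR and 80.4, 108 and 158 in Normal (log2 change 0.79, limma adjusted p = 0.0482). It did not pass when a library other than Normal replicate 3 was left out (adjusted p 0.0536 to 0.165), nor with edgeR (0.0629), with limma-voom (0.0562) or after scaling to library totals (0.0575). Kcnip3, a calcium-binding subunit of Kv4 channels also known as calsenilin, had 37.1, 49.0 and 27.4 in PVR and 0, 5.56 and 0 in Normal (log2 change 4.34, SE 0.77, limma adjusted p = 0.00236). Only Normal replicate 2 held any reads among the Normal libraries. Of the Kv4 pore genes, Kcnd1 had 45, 50 and 38 reads in PVR and 51, 65 and 58 in Normal, while Kcnd2 and Kcnd3 had no more than 7 reads in any library.

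The single-span subunits of the Kcne family split. Kcne4, known to inhibit Kv1 channels, rose to 86.5, 41.0 and 79.3 in PVR, against 17.5, 25.9 and 13.6 in Normal (log2 change 1.78, SE 0.39, limma adjusted p = 0.007), a call lost with replicates 1 and 2 alone (0.0685). Kcne2, a partner of Kcnq1 in choroid plexus and stomach, fell to 31.9, 17.1 and 62.3 in PVR, against 99.97, 103 and 133 in Normal (log2 change -1.74, SE 0.42, limma adjusted p = 0.0123). Without Normal replicate 3 its adjusted p was 0.0512. In neither gene did the groups overlap. Kcnab3 and Kcnip4 did not pass the test and their groups overlapped. Kcnmb1, the smooth muscle subunit of the large-conductance channel, had 1, 0 and 3 reads in PVR and 2, 2 and 1 in Normal.

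**Figure D4:**
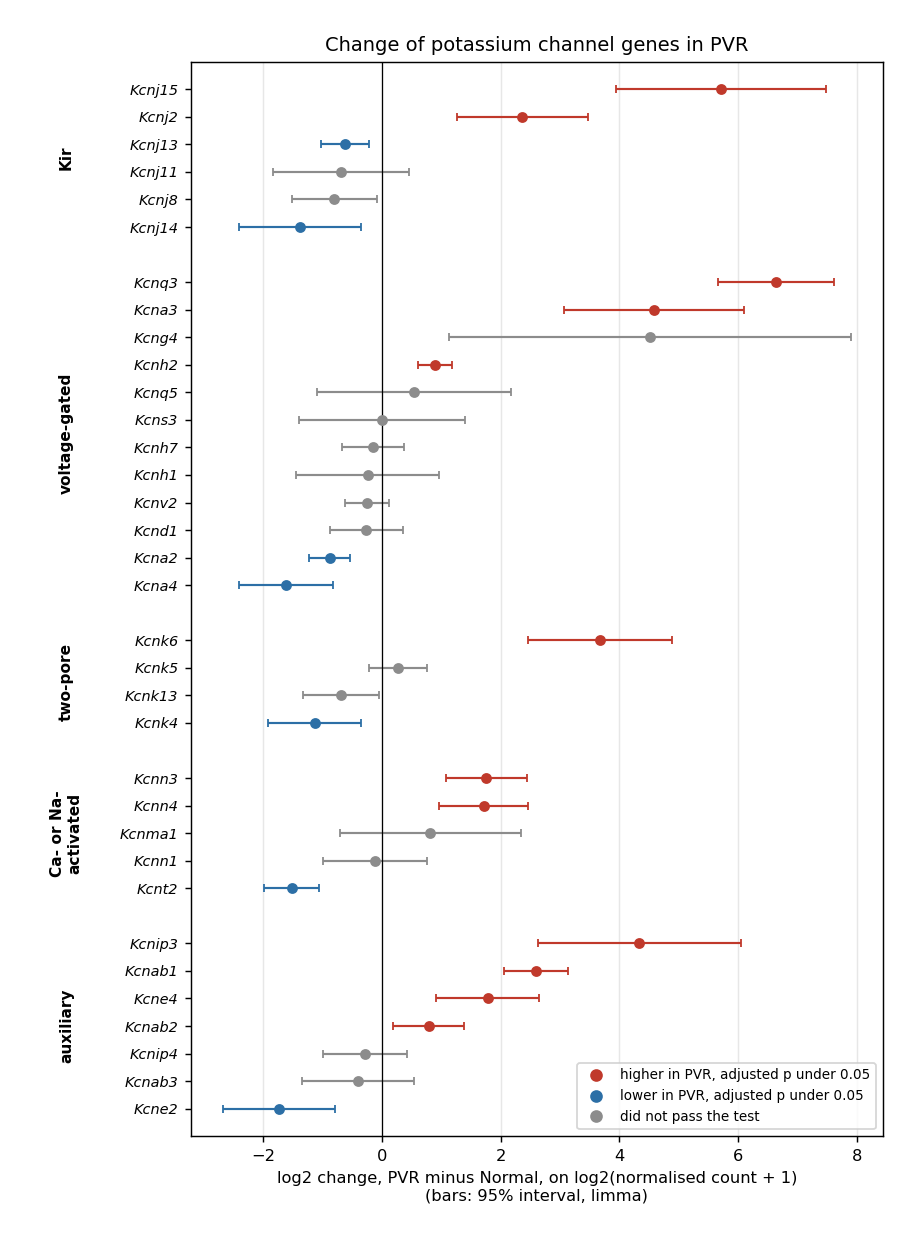
Change of 34 of the 37 tested potassium channel genes, as log2 of PVR over Normal after adding 1 to the normalised counts, with limma 95% intervals, grouped by class and coloured by whether the gene passed the test. Of the genes drawn that passed, 12 lie right of 0 and 7 left. Furthest right among them are Kcnq3, Kcnj15, Kcna3, Kcnip3 and Kcnk6, and furthest left is Kcne2 (-1.74). The genes named at the right passed the filter only through PVR, so the sizes of rises and falls are not compared.

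The order of the PVR libraries was also counted. Of the 12 that rose, 9 had their lowest PVR value in PVR replicate 3, beside 74.1% of all 2825 genes that rose. Of the 8 that fell, 5 had their highest PVR value in PVR replicate 3, beside 70.8% of all 2033 genes that fell. Divided by the RPE marker sum, 6 of the 8 stayed below Normal without overlap, and Kcnj13 and Kcna2 overlapped. That was not counted over all genes that fell, so it has no background share and only describes these 8. Exon bases shared with another listed gene were found for 4 of the 20. The 43 untested genes included 29 that had fewer than 10 reads in every library.

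Genes that work beside potassium channels were counted from a separate list of 43 symbols, of which 28 were tested, 7 higher and 1 lower. That is 28.6% in either direction, near the 30.8% of all genes tested. The sodium pump subunit gene Atp1b2 rose to 21360.0 ± 2338 in PVR, against 8305 ± 1175 in Normal (log2 change 1.37, limma adjusted p = 0.00014). Slc12a2, the sodium-potassium-chloride cotransporter of the apical membrane, rose to 10601 ± 959 in PVR, against 6325 ± 472 in Normal (log2 change 0.74, limma adjusted p = 0.00102). Both moved opposite to Kcnj13, and in each the groups did not overlap. Also higher were the pump regulators Fxyd5 and Fxyd6, the channel partner Amigo1 and the pacemaker channel gene Hcn4, and Hcn3 fell (42.3 ± 6.31 in PVR, 178 ± 30.9 in Normal, log2 change -2.05). Abcc9, the partner of Kcnj8 in pericytes, did not pass the test (33.7 ± 11.8 in PVR, 15.4 ± 5.87 in Normal, log2 change 1.09, limma adjusted p = 0.0838).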

How the data were processed

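Each deposited file lists 1 normalised signal for every gene symbol. These signals are gene reads that the authors divided by 1 size factor per library, as the values themselves show: 100% of the deposited values in each library were whole multiples of 1 step within 0.001 reads, and the factors equalled recomputed median-ratio factors. Per the submitters' processing notes, DESeq2 and the build mm10 are named, with no role stated. Aligner, counting program, strand use and annotation: not given in the sources used here. At these depths 3 reads, the level that a count of 0 allows, correspond to 2.72 to 3.42 normalised counts. Intervals and floors cover counting error only.

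Groups came from sample titles. PVR and Normal were compared over all genes with limma 3.58.1 in R 4.3.3, on log2(value + 1) with intensity trend and robust moderation, on genes that passed filterByExpr of edgeR (minimum count 10). The alternatives were edgeR 4.0.16, DESeq2 1.42.0 and limma-voom on the recovered reads, other scalings, pseudocounts and filters, a replicate block, and libraries left out. edgeR called 4698 of 15766 genes and limma 4858. All tests were tried on simulated data. Same-numbered libraries deviated together from their group means (correlations 0.206, 0.195 and 0.179 over genes, the other pairings between -0.137 and -0.0689), which by the rule used here makes same-numbered libraries pairs, although the labels do not describe a pairing. The reported fit has no block, and the blocked fit is an alternative. No 2 libraries were duplicates (chi-square per gene at least 19.9).

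The genes, classes and lists were chosen with earlier results of these data known. Named genes are all that passed the test, 16 fixed members, and the 3 with the highest level per kb of each class in each group. Kcng4, Kcnk2, Kcnj3, Kcnj11, Kcnd1, Kcnd2, Kcnd3, Kcnh1, Kcnh7, Kcns3, Kcnab3 and Kcnip4 fall outside that rule and were chosen after their values were seen. Exon lengths, overlaps and coordinates (1-based) are from GENCODE M21, which lists all 80 genes. Results for some genes that the rule names are not reported here.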

Additional observations from a re-analysis of the deposited data

How the results depend on the processing

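Across 18 alternatives 13 of the 20 called potassium channel genes kept their call in each, and none of the 20 changed sign. The number that rose lay between 11 and 13. The number that fell lay between 4 and 8 when 1 library was left out, and was 10 with the replicate number as a block, which gave 13 higher and 5328 genes called in all. Among the genes named, the block changed the calls of Kcnj8 and Kcng4, as given above, and no other. The Kcnj13 change lay between -0.76 and -0.45 with 1 library left out, was -0.56 with replicate 3 of both groups left out, where it was not called, and was -0.79 without Normal replicate 2 and PVR replicate 3. It kept its call under the other alternatives except those named above. Signs turned for Kcnn1 (0.0016 with edgeR, 0.0015 with DESeq2 and 0.31 without PVR replicate 1, down to -0.41 without PVR replicate 3) and for Kcnq5 (-0.14 without Normal replicate 1 and -0.01 without PVR replicate 2, up to 1.18 without Normal replicate 2 and PVR replicate 3), neither of which passed the test. The cause was not tested. Kcnma1 and Kcnq5 fell below the filter in some fits and have no value there. Kcnj10, Kcnq1 and Kcnk1 did not pass the filter on low counts, and with no filter none of the 3 was called (adjusted p 0.363, 0.863 and 0.842).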
